A study of Mus musculus with 25 samples.

Results

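The Rab GTPases are the largest branch of the Ras superfamily, and their genes were examined for GATA1 and TAL1 binding locations in mouse erythroid cells before and during maturation. Members are those genes annotated as protein-coding in GENCODE vM1 (mm9) with a symbol of Rab followed by a number and at most 1 letter. The rule gave 56 genes out of 22208 protein-coding gene names on 20 chromosomes. Binding values did not enter the rule.

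Binding was mapped by ChIP-exo, in which lambda exonuclease trims immunoprecipitated DNA up to the cross-linked protein. G1E cells are mouse erythroid progenitors that lack GATA1. G1E-ER4 cells are a line made from them that carries GATA1 fused to the ligand-binding domain of the estrogen receptor, so that estradiol activates the fusion and maturation begins. GATA1 in the ER4 samples is therefore the fusion protein, in cells with no other GATA1. The GATA1 libraries numbered 10, with 1 of G1E cells and 3 each of G1E-ER4 cells without estradiol (0 h) and after 3 and 24 h. The TAL1 libraries numbered 15, with 4 of G1E cells while G1E-ER4 cells gave 5 at 0 h, 3 at 3 h and 3 at 24 h. The labels give 10 nM estradiol at 3 and 24 h, while the study's methods state another dose. The lists of locations are pooled over time points, and whether the GATA1 library of G1E cells entered them is not known, since the study's text names G1E-ER4 cells only. They give each location as 1 base of mm9, without a score, a tag count, a time point or a replicate, so that the depth behind a location is not held in them and no test over samples could be made. The differences given are descriptions without a test.

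Rab proteins are molecular switches on membranes. An exchange factor loads a Rab with GTP, the loaded form recruits effectors that move, tether or fuse vesicles, and a GTPase-activating protein ends the cycle. Prenyl groups on C-terminal cysteines hold the protein in its membrane. Maturing erythroid cells take up iron through the transferrin receptor, which Rab5 proteins carry into early endosomes and Rab4 and Rab11 proteins help return to the surface, and later remove their organelles. GATA1 binds WGATAA, written here as AGATAA or TGATAA, and activates many erythroid genes. TAL1 is a basic helix-loop-helix factor that pairs with E proteins on E-boxes and often sits near GATA1 in a complex with LMO2 and LDB1.

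The members were checked against the sequence marks of the family in the coding transcripts of the annotation. The P-loop, which holds the phosphates of GTP, was sought as GxxxxGK followed by S or T, where x is any residue. This string was found in 54 of 56 genes in at least 1 transcript, the exceptions being Rab40b and Rab40c. A P-loop of other letters would be missed. The switch II motif WDTAGQE was present in 48 genes. The cysteine was sought in the longest coding transcript alone, where 55 genes had it among the last 5 residues, the exception being Rab43. That Rab43 transcript also lacked the P-loop string and WDTAGQE, which were found in other transcripts of the gene, so its missing cysteine says little about Rab43. The longest transcript of Rab34 did not end in a stop, so its true last residues may be missing. The longest coding transcripts coded for 194 (Rab22a) to 725 (Rab44) residues.

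A final location is one that the authors kept from the overlap of 2 calling methods, peak pairing and MultiGPS, and a gene was counted when a location lay in its body or within 10 kb. GATA1 and TAL1 final locations under 40 bp apart were called cooccupied, which in pooled lists need not mean the same cells or time point. Such locations lay at 8 Rab genes. The windows of 81 bases around the cooccupied GATA1 locations of 7 of them are given first (the eighth gene has 2 such locations, neither with WGATAA in its window, and is not printed), since both factors map there within a few turns of the helix. They are read from mm9 5′ to 3′. Capitals mark WGATAA, and also a TG that precedes it with 7 or 8 bases between. Where the WGATAA is on the minus strand, that strand is shown.
Rab1, GATA1 (chr11:20131270-20131350, - strand): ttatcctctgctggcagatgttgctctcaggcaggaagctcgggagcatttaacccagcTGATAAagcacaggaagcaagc
Rab4a, GATA1 (chr8:126322026-126322106, + strand): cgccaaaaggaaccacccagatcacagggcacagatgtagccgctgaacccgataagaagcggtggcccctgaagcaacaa
Rab5c, GATA1 (chr11:100583629-100583709, + strand): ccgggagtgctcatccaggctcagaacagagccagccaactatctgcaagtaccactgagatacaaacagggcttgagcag
Rab8b, GATA1 (chr9:66743937-66744017, + strand): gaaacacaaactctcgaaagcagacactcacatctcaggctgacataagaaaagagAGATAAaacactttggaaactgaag
Rab10, GATA1 (chr12:3285627-3285707, + strand): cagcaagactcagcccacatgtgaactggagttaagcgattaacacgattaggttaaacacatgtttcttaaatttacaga
Rab30, GATA1 (chr7:99891448-99891528, + strand): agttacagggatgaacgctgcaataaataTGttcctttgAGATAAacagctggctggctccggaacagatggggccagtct
Rab35, GATA1 (chr5:116076668-116076748, + strand): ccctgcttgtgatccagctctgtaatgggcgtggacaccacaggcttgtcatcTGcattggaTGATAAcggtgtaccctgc

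The layouts differed among the 7 genes. The Rab30 window had TG, 8 bases and AGATAA, with AGATAA at the location itself. The Rab35 window had TG, 7 bases and TGATAA, with TGATAA 22 bp from the GATA1 location. Rab1 and Rab8b had WGATAA without TG at those spacings, at 19 and 16 bp. Rab4a, Rab5c and Rab10 had no WGATAA in the GATA1 window. At Rab5c the window of the TAL1 location 38 bp away did hold AGATAA. An E-box of the form CAGATG or CAGCTG lay in the GATA1 windows of Rab1, Rab4a, Rab30 and Rab35, and the Rab10 window had only E-boxes of other CANNTG forms. A match is a description of the letters and not a mapped contact.

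The second set shows GATA1 locations within 1 kb of an annotated start site of their own Rab gene, the locations that can be given to a Rab promoter with the least doubt. There were 7 of these at 6 genes. Within 1 kb of a start site of any gene lay 18.9% of GATA1 locations at Rab genes (7.96 to 35.2%). At other protein-coding genes it was 15.8%. The windows of 5 of the 6 genes follow with the same marking.
Rab1, GATA1 (chr11:20102422-20102502, + strand): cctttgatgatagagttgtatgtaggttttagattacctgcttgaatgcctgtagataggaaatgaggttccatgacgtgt
Rab5a, GATA1 (chr17:53617645-53617725, - strand): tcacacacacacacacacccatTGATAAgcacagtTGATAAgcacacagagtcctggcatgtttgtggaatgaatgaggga
Rab5c, GATA1 (chr11:100598586-100598666, + strand): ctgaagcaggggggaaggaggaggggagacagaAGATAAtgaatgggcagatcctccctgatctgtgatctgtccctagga
Rab11a, GATA1 (chr9:64584482-64584562, + strand): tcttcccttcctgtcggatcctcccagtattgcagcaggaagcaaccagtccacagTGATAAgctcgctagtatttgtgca
Rab40c, GATA1 inside the gene (chr17:26051019-26051099, - strand): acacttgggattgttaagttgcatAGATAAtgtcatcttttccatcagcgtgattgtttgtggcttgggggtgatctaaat
Rab40c, GATA1 upstream (chr17:26057210-26057290, + strand): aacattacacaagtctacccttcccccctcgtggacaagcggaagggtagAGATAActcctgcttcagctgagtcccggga

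Rab5a, whose product drives early endosome fusion, had TGATAA on both sides of 7 bases, 874 bp upstream of the start site, with the location inside one of the copies. Rab5c had AGATAA 2 bp from its location, 864 bp inside the gene. Rab11a had TGATAA 16 bp away. Its location was in an intron, 204 bp upstream of an annotated start site that lies inside the gene. Rab40c, whose product is the substrate-binding part of a ubiquitin ligase, had 2 such locations near separate start sites, with AGATAA at 11 and 10 bp. The Rab1 location, at 850 bp, had no WGATAA, though its window held TGATAG and AGATAG. Rab13, a regulator of tight junction transport, had a location 14 bp upstream of its start site and no WGATAA in the window. TAL1 had 1 location within 1 kb of a Rab start site, also in an intron of Rab11a and 287 bp upstream of that inner start site. It was 83 bp from the GATA1 location there.

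GATA1 final locations lay at 17 of 56 Rab genes, or 30.4% (95% exact binomial interval, 18.8 to 44.1%), against 23.9% of all protein-coding genes. Long genes collect more locations, so each Rab gene was also set against the 200 other genes closest to it in length, whose mean share was 27.6%, or 15.5 genes of 56. TAL1 final locations lay at 12 Rab genes, or 21.4% (11.6 to 34.4%), against 21.3% of all genes and 24.5% at matched length. The 8 genes with a cooccupied location made 14.3% (6.38 to 26.2%), against 11.1% and 13%. At least 1 final location of either factor lay at 19 Rab genes, or 33.9% (21.8 to 47.8%), against 29% and 33.2%. Locations of both factors at any distance lay at 10 Rab genes, or 17.9% (8.91 to 30.4%), against 16.3% and 18.9%. In each of these the value for other genes, all or of like length, lay within the interval of the Rab genes. The intervals cover counting error only.

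**Figure D1:**
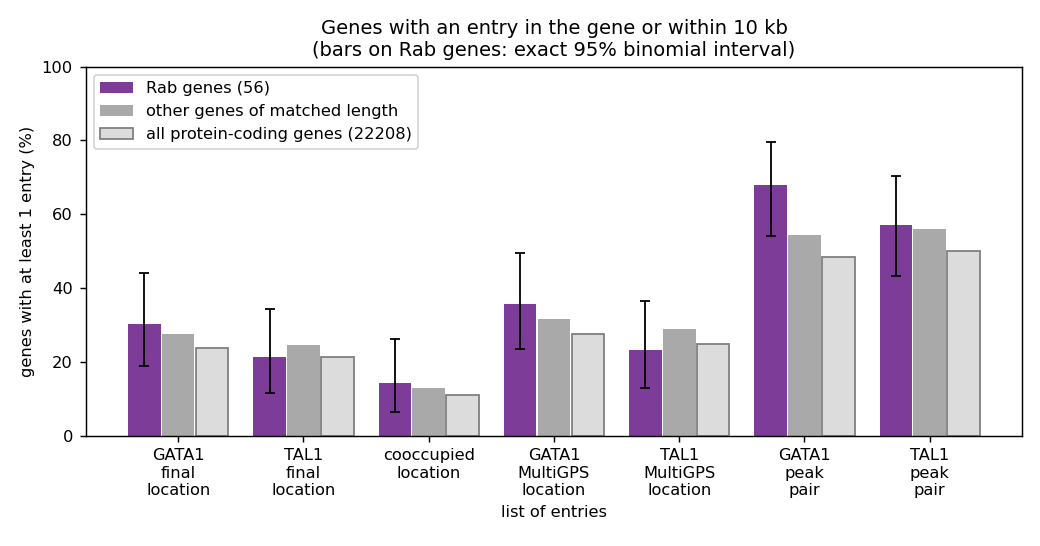
The share of genes in percent with at least 1 entry in the gene or within 10 kb, for each list, in Rab genes (with exact 95% binomial intervals), in other genes of matched length and in all protein-coding genes. For final locations the bars differ little beside the intervals, for example 30.4, 27.6 and 23.9% for GATA1, while GATA1 peak pairs reach 67.9% of Rab genes.

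The less selective lists gave larger shares. GATA1 MultiGPS locations lay at 20 Rab genes, or 35.7% (23.4 to 49.6%), against 27.5% of all genes and 31.7% at matched length. TAL1 MultiGPS locations lay at 13, or 23.2% (13 to 36.4%), against 24.8% and 28.9%. A peak pair is a couple of exonuclease stops on opposite strands, before the lists were intersected. GATA1 peak pairs lay at 38 Rab genes, or 67.9% (54 to 79.7%), against 48.4% of all genes and 54.5% at matched length, and the second of these is just inside the interval. TAL1 peak pairs lay at 32, or 57.1% (43.2 to 70.3%), against 50.1% and 56.1%.

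The number of locations gave a like picture. Rab genes held 37 GATA1 final locations, where genes of matched length would hold 29, and 32 TAL1 final locations, where such genes would hold 39.4. With locations under 500 bp apart counted once, Rab genes held 34 for GATA1 and 23 for TAL1. The matched totals count every location as listed, so they are not to be set against these. Per 100 kb of window there were 1.17 GATA1 locations at Rab genes, against 0.712 at all genes, and 1.01 TAL1 locations at both. Unlike the totals, these densities are not matched on gene length. The median number per Rab gene was 0 for each factor. As listed, the TAL1 locations were the more concentrated in a few members. GATA1 had 4 or 5 locations at 4 genes (Rab8b, Rab4a, Rab10 and Rab27b), 2 at 7 genes and 1 at 6. TAL1 had 8 at Rab27b, 4 at 3 genes, 3 at 2 genes and 1 at 6.

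**Figure D2:**
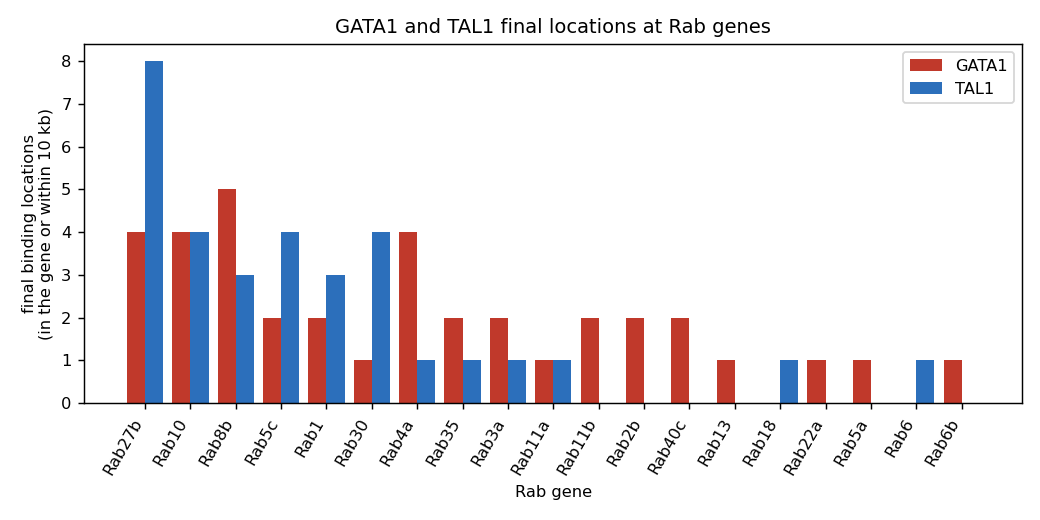
The number of GATA1 and TAL1 final locations in the gene or within 10 kb, for the 19 Rab genes with at least 1, ordered by their sum. Rab27b has 4 GATA1 and 8 TAL1 locations, and 9 genes have locations of only 1 factor.

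Rabs of recycling endosomes and polarised transport had final locations at 6 of 10 genes (exact interval 26.2 to 87.8%). Matched length would give 3.16 genes with a location. The 6 genes held 15 GATA1 and 9 TAL1 locations. Rab8b, a Rab of exocytosis towards the cell surface, had 5 GATA1 and 3 TAL1 locations, 7 of them in introns. They included a cooccupied one 23484 bp from the start site, with the factors 33 bp apart. Its close relative Rab8a had no entry in any list. Rab10, which acts in the insertion of transporters and receptors into the plasma membrane, had 4 of each in its introns. The GATA1 ones stretched over 17977 to 31010 bp from the start site, and the cooccupied pair was 31 bp apart. Rab11a, the main Rab of slow recycling, had 1 of each in an intron, near an annotated start site inside the gene. Rab11b had 2 GATA1 locations under 500 bp apart in a noncoding part of an exon, each with WGATAA at most 1 bp away. Rab35, which acts in fast recycling and cytokinesis, had 2 GATA1 locations and 1 TAL1 location, with its cooccupied pair 5230 bp upstream and only 6 bp apart.

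Early endosome Rabs had final locations at 4 of 9 genes, with 8 GATA1 and 5 TAL1 locations, where matched length would give 3.06 genes. Rab4a, a Rab of fast recycling from early endosomes, had 4 GATA1 locations and 1 TAL1 location. The cooccupied pair lay 7819 bp upstream and 13 bp apart, and another GATA1 location fell in a coding exon 17751 bp from the start site, with WGATAA 22 bp away. All 5 lay also within the overlapping gene model Gm20388. Rab4b had none. Rab5c had 2 GATA1 and 4 TAL1 locations, of which 3 TAL1 locations formed a cluster around the cooccupied GATA1 location in an intron. The fourth was downstream of the gene and 42 bp from the start site of Hspb9, a small heat shock protein gene. Rab5a had the 1 GATA1 location given above, and Rab5b had none. Rab22a had 1 GATA1 location in an intron, with 3 copies of WGATAA in its window.

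The secretory Rabs of the endoplasmic reticulum and Golgi had final locations at 6 of 12 genes, with 6 GATA1 and 9 TAL1 locations, where matched length would give 4.18 genes. Rab1, which acts in transport between these organelles, had 2 GATA1 and 3 TAL1 locations. Of these, 4 lay close together downstream of the gene and inside the neighbouring gene Cep68, 16533 to 16710 bp from the closest Rab1 start site. Rab1b had no entry. Rab30, a Golgi Rab, had 1 GATA1 and 4 TAL1 locations, with the cooccupied pair 1375 bp from a start site and 14 bp apart, and TAL1 locations on either side within 149 bp of it. Rab2b had 2 GATA1 locations downstream of the gene, and Rab2a had none in the final list but 2 in the MultiGPS list. Rab6 had 1 TAL1 location and Rab6b 1 GATA1 location, and each of the pair was closer to the start site of another gene, Mrpl48 and Srprb. Rab18, a Rab of lipid droplets, had 1 TAL1 location in an intron.

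Rabs of regulated secretion and lysosome-related organelles had final locations at 2 of 10 genes, where matched length would give 3.52. Rab27b, a Rab of secretory granule docking, had the most of any member. Its 4 GATA1 and 8 TAL1 locations lay in introns of a gene of 162475 bp. It was the only member with 2 cooccupied pairs, 16 and 36 bp apart, with no WGATAA in either GATA1 window, and a stretch with 3 TAL1 locations lay 52432 to 52714 bp from the closest start site. Rab27a, its partner in granule secretion, had no final location, 2 GATA1 peak pairs and 1 TAL1 peak pair. Rab3a, a Rab of synaptic vesicles with a gene of 3999 bp, had 2 GATA1 locations and 1 TAL1 location. They fell downstream of the gene, in Ifi30 and closer to the start site of Ifi30. Rab3b, Rab3c and Rab3d had none.

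The late endosome, lysosome and autophagy Rabs had no final location of either factor at any of their 8 genes (0 of 8, exact interval 0 to 36.9%), where matched length would give 2.35. Among them are Rab7, which directs late endosomes to lysosomes, and the Rab9 pair, which serves return from endosomes to the Golgi. Together they had 4 GATA1 peak pairs and 1 TAL1 peak pair at 4 genes, with 2 GATA1 pairs at Rab7. Of the remaining 7 less studied members only Rab40c had a final location. The role groups are small, and their intervals are wide.

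**Figure D3:**
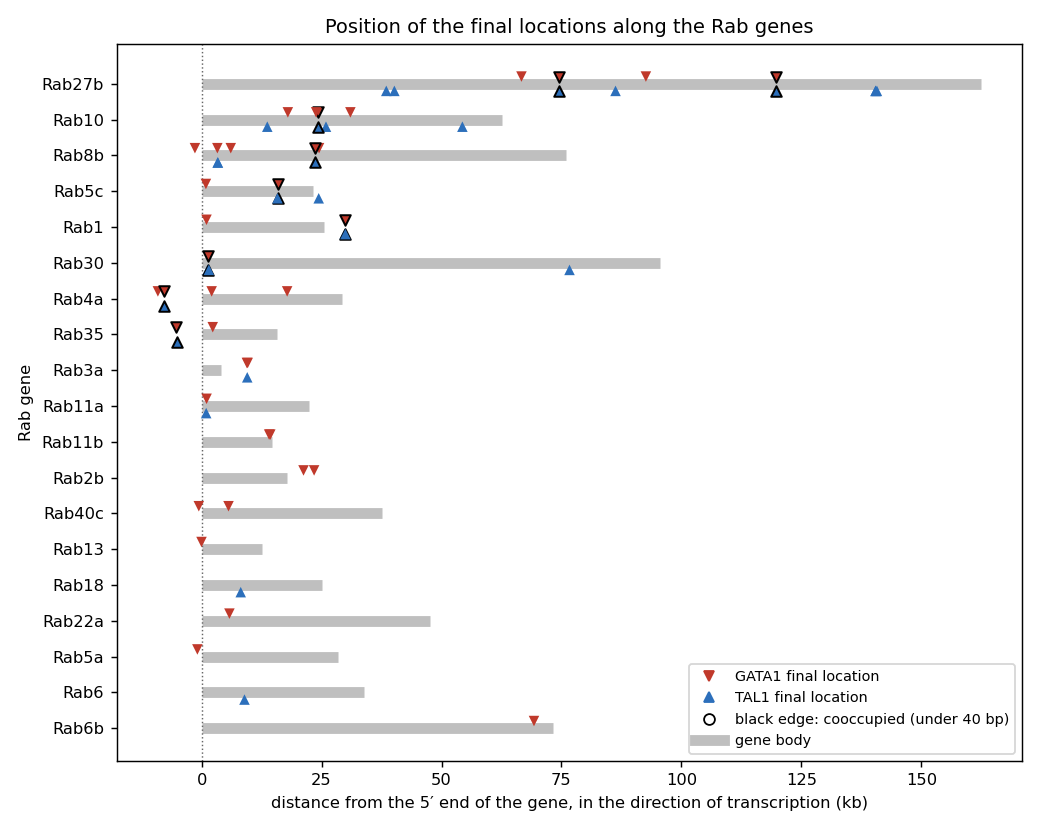
Each of the 19 Rab genes with a final location is drawn from its 5′ end, with distance in kb in the direction of transcription, GATA1 locations above the gene body and TAL1 locations below it, and black edges for cooccupied ones. All locations of Rab27b lie inside its 162475 bp, while those of Rab3a and Rab2b lie beyond the end of the gene.

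Members that share the number in their symbol were also set side by side. Relatives under other numbers were not grouped with them. There were 13 such groups of at least 2 members, with 29 genes. All members had a final location in 2 (Rab6 and Rab11), some in 8 and none in 3 (Rab9, Rab33 and Rab39). The share over all members was 33.9%, and nothing particular to relatives is read from this tally. No final location lay at 37 members. Of these, 12 had no entry in any list, namely Rab1b, Rab8a, Rab9, Rab9b, Rab17, Rab19, Rab20, Rab23, Rab24, Rab32, Rab33b and Rab44. Another 23 had peak pairs only. Rab2a and Rab43 had MultiGPS locations as well. Rab43 had the most peak pairs without a final location, 6 of GATA1 and 4 of TAL1.

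Gene length went with the number of locations to a small degree. Over the 56 Rab genes Spearman's rho of length and count was 0.24 for GATA1 and 0.26 for TAL1, against 0.23 and 0.24 over all genes, where the points share the same lists. The median Rab gene was 22956 bp, against 15526 bp over all genes. Of the 10 longest members 4 had a final location, whereas Rab3c (226715 bp), Rab31 (121027 bp) and Rab28 (83180 bp) had none.

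**Figure D4:**
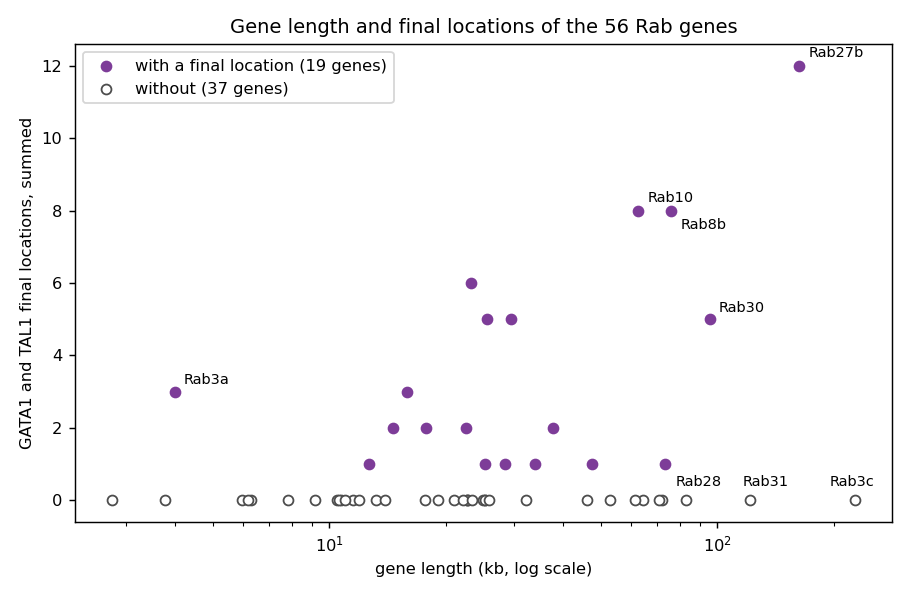
Gene length in kb on a log axis against the summed number of GATA1 and TAL1 final locations, for 56 Rab genes, filled where at least 1 was present. Rab27b stands highest with 12, while Rab3c and Rab31, which are also long, are at 0.

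Most locations at Rab genes, like most of those at other genes, lay in introns and over 1 kb from a start site. GATA1 had 21 of 37 in an intron of the Rab gene, 7 upstream, 5 downstream and 4 in exons, at a median of 7668 bp from the closest start site of the gene (14 to 69267 bp). TAL1 had 25 of 32 in introns, 2 upstream and 5 downstream and 0 in exons, at a median of 11056 bp (287 to 54347 bp). The Rab start site was the closest of any gene for 34 GATA1 and 28 TAL1 locations. The locations were also set against all others in or within 10 kb of a protein-coding gene. An intron of any gene held 93.8% of TAL1 locations at Rab genes (79.2 to 99.2%), against 69.9% elsewhere. For GATA1 it was 70.3% against 70.7%. An exon of any gene held 10.8% of GATA1 locations at Rab genes (3.03 to 25.4%), against 6.2%. For TAL1 it was 0% (0 to 10.9%), against 6.68%. Within 1 kb of a start site of any gene lay 18.9% of the GATA1 locations (7.96 to 35.2%), against 15.8%. For TAL1 it was 6.25% (0.766 to 20.8%), against 13.2%. Neighbouring locations are not independent, and Rab27b alone gave 8 of the TAL1 locations.

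WGATAA within 40 bp was found at 62.2% of the GATA1 locations at Rab genes (44.8 to 77.5%), against 66.3% of those elsewhere. In windows moved by 1 kb the shares were 10.8% and 8.07%. The median distance to it was 11 bp at Rab genes. TG at 7 or 8 bases upstream was present at 10.8% of GATA1 locations at Rab genes (3.03 to 25.4%), against 21.6%. At TAL1 locations WGATAA was found at 46.9% (29.1 to 65.3%), against 45.4%, and TG with it at 21.9% (9.28 to 40%), against 24.6%. The looser WGATAR, which is WGATAA or WGATAG, was found at 70.3% of GATA1 locations at Rab genes (53 to 84.1%), against 79.9%. For TAL1 it was 46.9% (29.1 to 65.3%), against 56.1%. The E-box CAGATG or CAGCTG was found at 28.1% of TAL1 locations at Rab genes (13.7 to 46.7%), against 21.8%, and at 21.6% of GATA1 locations there (9.83 to 38.2%), against 17.3%. The wider form CANNTG, which includes it, was found at 37.5% of TAL1 locations at Rab genes (21.1 to 56.3%), against 45.2%, and at 43.2% of GATA1 locations (27.1 to 60.5%), against 38.4%. TAL1 locations with another under 500 bp away made 43.8% (26.4 to 62.3%), against 64.1%. For GATA1 such neighbours were present at 16.2% (6.19 to 32%), against 12.9%.

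Cooccupied locations were 9 of 37 GATA1 locations at Rab genes, or 24.3% (11.8 to 41.2%), against 34.7% elsewhere. They were 9 of 32 TAL1 locations, or 28.1% (13.7 to 46.7%), against 27.6%. Of the cooccupied GATA1 locations 4 of 9 had WGATAA (44.4%, 13.7 to 78.8%), against 19 of the 28 others (67.9%, 47.6 to 84.1%). The E-box CAGATG or CAGCTG lay at 5 of the 9 and at 3 of the 28. The counts are small, and the same split of locations elsewhere is not given here. Nothing particular to Rab genes is therefore read from it. A further 5 GATA1 and 8 TAL1 locations had no final location of the other factor under 40 bp but did have one of its peak pairs.

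Some GATA1 peak pairs at Rab genes carried the motif also where no final location was called. At the 39 members without a GATA1 final location there were 37 GATA1 peak pairs, and 16 of them, or 43.2% (27.1 to 60.5%), had WGATAA within 40 bp, against 5.41% in windows moved by 1 kb. At the 17 members with one it was 54.6% of 108 peak pairs (44.8 to 64.2%), against 11.1%. At the 44 members without a TAL1 final location 4 of 36 TAL1 peak pairs had WGATAA, or 11.1% (3.11 to 26.1%), against 13.9% in moved windows. At the 12 members with one it was 28% of 118 (20.1 to 37%), against 8.47%.

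The proteins that switch Rabs on and off, and their effectors, were listed apart from the members, and 81 of 82 listed genes were in the annotation. GATA1 final locations lay at 36 of them, or 44.4%, against 31.4% at matched length. TAL1 final locations lay at 33, or 40.7%, against 29.5%, and cooccupied ones at 24, or 29.6%, against 15.9%. Their median length was 53617 bp. Evi5, a gene for a protein with a Rab GTPase-activating domain, had 8 GATA1 and 17 TAL1 locations. Rabggtb, the beta subunit of the enzyme that prenylates Rabs, had 5 GATA1 locations and no TAL1 location in its 5678 bp or within 10 kb. Whether the locations counted for these listed genes lay closer to the start sites of other genes is not given here.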

How the data were processed

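GATA1 and TAL1 ChIP-exo was analysed from 6 deposited lists of positions, 3 per factor. The authors aligned reads to mm9 (the submitters' processing notes name BWA 0.6.2 and 0.7.9a, Bowtie 1.00, CASAVA 1.7 and bcl2fastq 2.15), merged replicates, and deposited peak pairs, MultiGPS locations and final locations as other values, 1 base position each with no score. The lists hold 10290 GATA1 and 15209 TAL1 final locations, and no column of theirs was left out for want of a sample. Tag counts were not analysed here, so calls near the authors' thresholds cannot be weighed by depth.

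A gene was counted with an entry in its body or within 10 kb, by GENCODE vM1 on the mm9 genome. Where a name had several entries (22350 entries for 22208 names) the longest was used. Positions all lay within the chromosome lengths. Matched length means the mean share over the 200 other genes closest in length to each member. Motifs were searched on both strands, wholly inside 81 bases around the location, and background windows lay 1 kb away. Intervals are exact Clopper-Pearson intervals at 95%. Protein marks were read from translated GENCODE coding transcripts in place of RefSeq proteins. The windows compared with those of Rab genes, at locations in or within 10 kb of other protein-coding genes, were chosen after seeing the data. The genes named are the 12 with the most final locations and ties, those with a cooccupied location or one within 1 kb of a start site, and those without an entry, and further genes were picked after seeing their values. The members, role groups and gene lists were chosen with earlier results of these data known. The counting was tested on simulated data. Sequences were read with pysam 0.24.0 and Biopython 1.88, intervals came from scipy 1.17.1, tables from pandas 2.3.3 and numpy 2.4.6, and plots from matplotlib 3.10.9, under Python 3.11.15.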

Additional observations from a re-analysis of the deposited data

How the results depend on the processing

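The number of Rab genes with a location depended on the list and the window. In place of 17 genes for GATA1 there were 38 with peak pairs, 38 with peak pairs under 40 bp apart merged (67.9%, against 48.4% of all genes), and 31 with 50 kb around the gene (55.4%, against 42.7%). In place of 12 for TAL1 there were 32, 32 (57.1%, against 50%) and 30 (53.6%, against 40.3%). Rab genes with cooccupied locations were 5 instead of 8 at under 20 bp (8.93%, against 7.56%). For GATA1 the gene body alone gave 13 (23.2%, against 14.4%), a 5 kb window 16 (28.6%, against 20.1%), the closest start site at any distance 19 (33.9%, against 21.6%) and locations closest to the gene's own start site 15 (26.8%, against 17.7%). For TAL1 these were 8 (14.3%, against 12.9%), 9 (16.1%, against 17.6%), 12 (21.4%, against 20.1%) and 10 (17.9%, against 15.7%). Shares of all genes are not matched on length. WGATAA within 20 bp was found at 40.5% of GATA1 and 18.8% of TAL1 locations, in place of 62.2% and 46.9%, and a narrower window can hold no more. Matched shares stayed at 27.47 to 27.64% for GATA1 and 24.5 to 24.91% for TAL1 with 100 or 500 genes or 20 length bins. No paired analysis was possible because the lists are pooled and hold no replicate, and for the same reason no replicate could be left out. The lists hold no depth, and the library read counts that the study gives were not used here, so a gene without a location is one where none was called.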

Other observations

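Some other branches of the Ras superfamily gave other shares. Of 25 Arf and Arl genes 13 had a GATA1 final location (52%), against 24.4% of genes of matched length, and 12 had a TAL1 final location (48%), against 21.5%. Of 21 Ras, Rap and Ral genes 5 had a GATA1 location (23.8%), against 26.3%, and 4 a TAL1 location (19%), against 22.8%. These lists were chosen with results of these data known, and the shares were not tested.

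Some Rab genes without a location within 10 kb were the closest gene to more distant ones. Rab3b had the closest start site to 2 GATA1 and 2 TAL1 locations, and Rab39b to 2 GATA1 locations. Within 50 kb of Rab43 lay 3 GATA1 and 11 TAL1 final locations, and within 50 kb of Rab31 lay 2 and 5, all of them closer to the start sites of other genes.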
